A study of Mus musculus with 6 samples.

Results

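The 10 genes described here encode the oxygen-sensing hypoxia-inducible factor (HIF) pathway and some of its targets: Hif1a, Epas1, Arnt, Vhl, Egln1, Egln2, Egln3, Bnip3, Ddit4 and Ndrg1. They were taken by name from a table of 23358 gene rows, all 10 were found, and all 10 passed the filter on low counts. The cells were marrow-derived mesenchymal stem cells of the C57BL/6 mouse strain, adherent progenitors of bone, fat and cartilage, used at passage 6 to 12. In 3 libraries the cells had received an siRNA against Dia2, the formin encoded by Diaph3, and in the other 3 a non-targeting control siRNA, at 50 nM. The cells were lysed 24 h after a change from transfection to growth medium. The knockdown was transient and is described with a single Dia2 siRNA sequence. Neither the oxygen level of the cultures nor their number per group is given in the labels used here, so replicates may be technical and the p-values cover library-to-library spread alone.

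HIF is a dimer of an oxygen-regulated alpha subunit (HIF-1alpha from Hif1a or HIF-2alpha from Epas1) and a stable beta subunit (from Arnt). When oxygen is available, the prolyl hydroxylases encoded by Egln1, Egln2 and Egln3 hydroxylate the alpha subunit, and the von Hippel-Lindau protein (Vhl) then directs it to the proteasome. When oxygen is short, the alpha subunit persists, and the dimer binds a core motif in the promoters and enhancers of its targets, which include Bnip3, Ddit4, Ndrg1, Egln3 and Egln1 itself. Most of this control acts on the protein, which was not measured here, and the bone marrow in which these cells reside is known as a tissue low in oxygen.

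Total counts ranged from 78529650 to 95573070 in the Dia2 siRNA libraries and from 70538768 to 110006338 in the control libraries, with every count even. Floors from such counts cover counting error only, whereas each SE comes from the edgeR fit and also holds the spread between libraries. Diaph3 itself stood at 7.52, 8.37 and 7.39 CPM in the Dia2 siRNA libraries and at 84.7, 80.1 and 84.8 CPM in the control libraries (CPM, counts scaled to library size with TMM factors). That was 10.7-fold lower (edgeR adjusted p = 1.66e-11). Of the 10 stromal markers 9 were tested, Thy1 was under 0.1 CPM, and their summed level was 9581 to 10155 CPM in the Dia2 siRNA libraries and 5688 to 6717 CPM in the control libraries. Most of this sum was Col1a1, with means of 6605 and 4652 CPM. Of the 9 tested, 8 were called higher at an edgeR adjusted p under 0.05, against 29.3% of all genes tested. The 8 endothelial markers summed to 1.78 to 2.24 CPM with Dia2 siRNA and 2.21 to 2.26 CPM with control siRNA. The 8 blood markers summed to 4.87 to 7.05 CPM with Dia2 siRNA and 10.6 to 11.7 CPM with control siRNA. Of the 4 blood markers tested 3 were called lower at the same threshold, against 29.9% of all genes tested. Their means with Dia2 siRNA and control siRNA were 0.675 and 3.41 CPM (Cd53), 0.892 and 2.65 CPM (Itgb2) and 0.967 and 1.99 CPM (Cd68). Csf1r did not pass, at 3.00 and 2.92 CPM. Cdh5, Tie1, Emcn, Esam, Ptprc, Adgre1, Laptm5 and Hba-a1 were each under 0.1 CPM on average, and the part of these shifts in the results below was not tested. In bulk RNA, fewer cells of a type and less RNA per cell cannot be told apart.

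The promoters of 3 HIF targets and of Hif1a are shown because HIF acts on its targets through a short core motif. Windows of 300 bases, from 250 bases before to 50 after the RefSeq start (GRCm38.p6), were available for 8 of the 10 members. ACGTG and GCGTG were searched on both strands, so that the palindrome CACGTG counts on each strand. Capitals mark the matches, including the reverse complements CACGT and CACGC, and sequences run 5′ to 3′ on the gene's strand.
Bnip3 (chr7:138909457-138909756, minus strand): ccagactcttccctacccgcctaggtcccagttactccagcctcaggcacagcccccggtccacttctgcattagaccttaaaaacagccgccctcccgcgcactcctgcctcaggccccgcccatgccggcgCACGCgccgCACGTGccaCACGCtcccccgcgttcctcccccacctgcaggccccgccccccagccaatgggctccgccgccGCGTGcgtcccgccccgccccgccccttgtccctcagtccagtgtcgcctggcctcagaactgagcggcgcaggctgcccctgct
Ddit4 (chr10:59951721-59952020, minus strand): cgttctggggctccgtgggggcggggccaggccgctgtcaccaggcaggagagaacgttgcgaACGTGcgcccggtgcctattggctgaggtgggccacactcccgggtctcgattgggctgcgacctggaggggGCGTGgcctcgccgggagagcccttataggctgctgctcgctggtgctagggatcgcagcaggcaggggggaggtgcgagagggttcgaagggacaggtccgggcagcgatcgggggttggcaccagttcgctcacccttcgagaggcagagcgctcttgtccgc
Hif1a (chr12:73907617-73907916, plus strand): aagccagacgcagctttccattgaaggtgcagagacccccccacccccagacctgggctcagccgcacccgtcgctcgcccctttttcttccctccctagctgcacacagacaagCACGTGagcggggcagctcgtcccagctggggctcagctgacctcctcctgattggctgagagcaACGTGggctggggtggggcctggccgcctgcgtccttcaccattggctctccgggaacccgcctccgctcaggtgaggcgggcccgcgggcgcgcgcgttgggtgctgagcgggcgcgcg
Egln3 (chr12:54203825-54204124, minus strand): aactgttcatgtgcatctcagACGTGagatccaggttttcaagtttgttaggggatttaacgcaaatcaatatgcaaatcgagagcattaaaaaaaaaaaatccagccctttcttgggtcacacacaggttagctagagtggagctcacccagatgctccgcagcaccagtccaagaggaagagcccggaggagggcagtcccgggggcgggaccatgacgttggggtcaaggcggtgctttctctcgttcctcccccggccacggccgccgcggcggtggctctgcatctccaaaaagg
The Bnip3 window held 5 matches, the Hif1a window 3, the Ddit4 window 2 and the Egln3 window 1. Egln1 had 2, Arnt 1 and Vhl 0, and the 2 windows of Egln2 had 6 and 1. Of all 32851 promoter windows, 43.8% held at least 1 match and 1.66% at least 5. The windows of Bnip3, Hif1a, Ddit4 and Egln3 had a GC content of 71.7%, 69.3%, 69.0% and 54.7%, where the median window had 52.7%. The part of base composition in the number of matches was not tested. A match is a string of letters and not a measured binding site.

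Of the 10 members, 5 rose, 2 fell and 3 did not pass the test (edgeR's quasi-likelihood test, adjusted p under 0.05 over 14151 genes). Much of the transcriptome differed between the groups: 59.2% of all genes tested passed, 29.3% higher and 29.9% lower, so that 7 of 10 lies near the background. The groups did not overlap for 7 members, 5 higher and 2 lower, which are the same 7, against 64.6% of all genes tested (32.3% higher, 32.2% lower). The median log2 fold change (Dia2 siRNA over control siRNA, as throughout) was 0.14 over the members and 0.01 over all genes. The HIF targets Bnip3, Ndrg1 and Ddit4 rose by 1.5- to 1.92-fold, and the alpha subunit gene Hif1a rose less. Vhl and Egln2, which act in the removal of the alpha subunit, fell, but Egln1, which acts there too, could not be judged. Other HIF targets went both ways: of 51 tested outside the members, 24 rose and 14 fell.

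**Figure D1:**
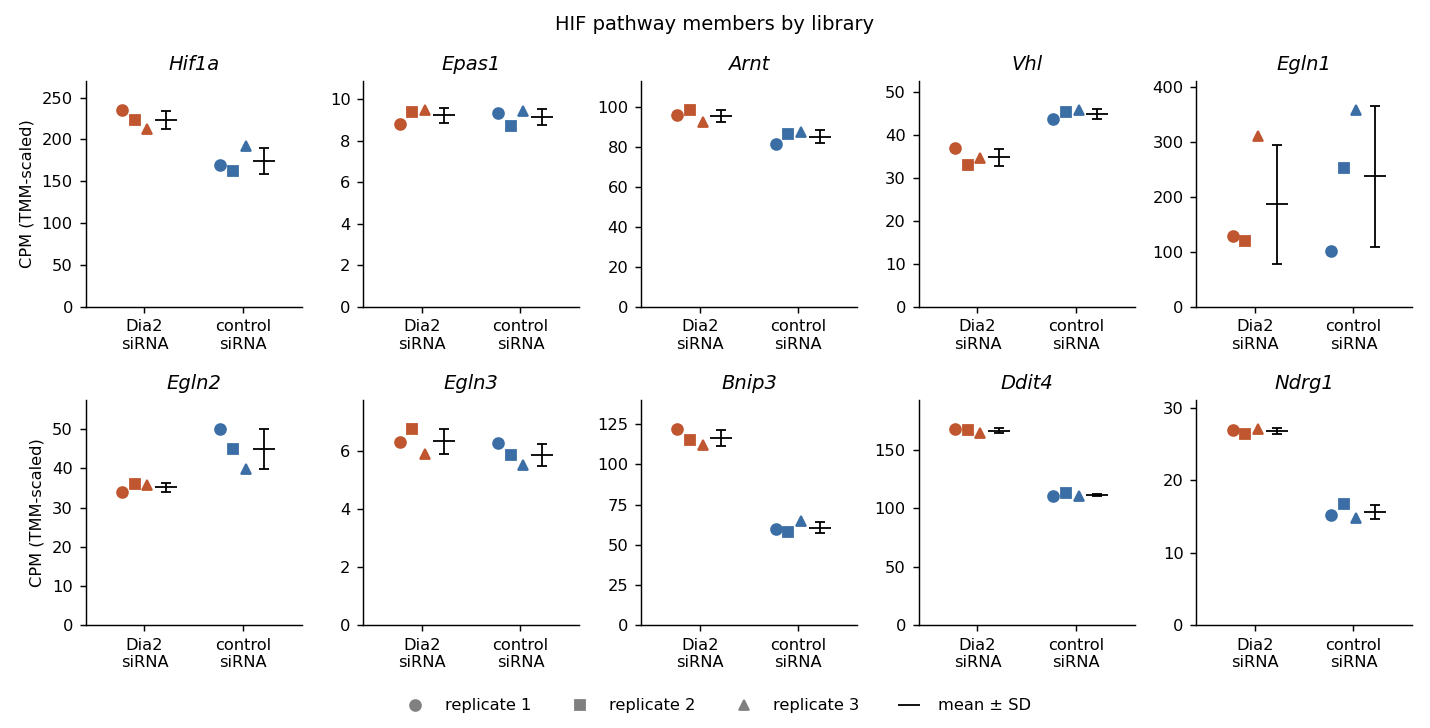
TMM-scaled CPM (y axes, starting at 0) of each of the 10 members in the 3 Dia2 siRNA libraries (left, orange) and the 3 control siRNA libraries (right, blue), with mean ± SD beside them. Bnip3, Ddit4, Ndrg1, Hif1a and Arnt lie higher and Vhl and Egln2 lower in every Dia2 siRNA library, and Egln1 spreads widely within both groups.

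Hif1a (chromosome 12, 73907867 to 73947530, plus strand, GRCm38), which encodes the alpha subunit HIF-1alpha, was higher in every Dia2 siRNA library. It stood at 235, 223 and 213 CPM with Dia2 siRNA and at 169, 163 and 192 CPM with control siRNA. The lowest Dia2 siRNA library was above the highest control library, control replicate 3, and the means were 224 ± 10.9 and 175 ± 15.5 CPM (SD, n = 3 each). The log2 fold change was 0.36 ± 0.06 (SE; edgeR adjusted p = 0.000387), a 1.28-fold rise.

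Epas1 (chromosome 17, 86753864 to 86833410, plus strand), which encodes HIF-2alpha, an alpha subunit known from endothelium, had 8.82, 9.39 and 9.47 CPM with Dia2 siRNA and 9.33, 8.72 and 9.43 CPM with control siRNA. The groups overlapped almost fully, and the log2 fold change was 0.01 ± 0.07 (SE; edgeR adjusted p = 0.901). On the scale per length (deposited RPKM), Hif1a exceeded Epas1 by 29.9, 26.7 and 25.3 times in the Dia2 siRNA libraries and by 20.4, 21.0 and 22.9 times in the control libraries. The groups of ratios did not overlap, with a difference in log2(Epas1/Hif1a) of -0.35, and the exact two-sided permutation test gave p = 0.1, the smallest that 3 against 3 libraries allow.

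Arnt (chromosome 3, 95434390 to 95497239, plus strand), the beta subunit shared by HIF-1 and HIF-2, changed least among the members that passed. It had 95.9, 98.3 and 92.2 CPM with Dia2 siRNA and 81.4, 86.6 and 87.2 CPM with control siRNA. All 3 Dia2 siRNA libraries were higher, at a log2 fold change of 0.17 ± 0.05 (SE; edgeR adjusted p = 0.00906). Without Dia2 replicate 2 the call was lost (0.14, adjusted p = 0.0661).

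Vhl (chromosome 6, 113624021 to 113631633, plus strand), the substrate-binding subunit of the ubiquitin ligase that marks hydroxylated alpha subunits, was lower. It had 36.9, 32.9 and 34.6 CPM with Dia2 siRNA and 43.6, 45.3 and 45.6 CPM with control siRNA. The groups did not overlap, and the log2 fold change was -0.37 ± 0.06 (SE; edgeR adjusted p = 0.000176), 1.29-fold lower. Of the 8 members with a promoter window, Vhl alone had no HIF core motif there. Egln2, which also fell, had windows with 6 and 1 matches, and 43.8% of all windows held at least 1. A relation of matches to the changes was not tested.

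Among the prolyl hydroxylases, which use oxygen to mark the alpha subunit, Egln2 fell, Egln3 did not pass and Egln1 could not be judged. Egln2 (PHD1; chromosome 7, 27158658 to 27166802, minus strand) had 33.9, 36.1 and 35.6 CPM with Dia2 siRNA and 50.1, 44.9 and 39.8 CPM with control siRNA. Control replicate 3 came closest to the Dia2 siRNA libraries, the groups did not overlap, and the log2 fold change was -0.35 ± 0.08 (SE; edgeR adjusted p = 0.00177). Egln3 (PHD3; chromosome 12, 54178981 to 54203874, minus strand), a hydroxylase and itself a HIF target, was scarce at 6.33, 6.77 and 5.92 CPM with Dia2 siRNA and 6.27, 5.87 and 5.51 CPM with control siRNA. Its groups overlapped, at a log2 fold change of 0.10 ± 0.09 (SE; edgeR adjusted p = 0.345).

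Egln1 (PHD2; chromosome 8, 124908587 to 124949254, minus strand), the hydroxylase best known for holding HIF-1alpha low in normal oxygen, varied within the groups more than between them. It had 128, 119.8 and 311 CPM with Dia2 siRNA and 101, 252 and 357 CPM with control siRNA. Dia2 replicates 1 and 2 and control replicate 1 were low, and Dia2 replicate 3 and control replicates 2 and 3 were high, so the split did not follow the groups. The log2 fold change was -0.34 ± 0.68 (SE; edgeR adjusted p = 0.702) and turned to 0.08 without control replicate 3. The within-group SD of log2 CPM was 0.86, against a median of 0.07 over 9986 genes with a mean of at least 5 CPM, and only 8 of those genes spread more. The other 9 members ranged from 0.02 (Ddit4) to 0.12 (Egln2). The promoter window of Egln1 had a GC content of 86.0%, where the median window had 52.7%, and the part of base composition in this spread was not tested. The libraries with low Egln1 had 10.9%, 7.41% and 6.05% of their counts in the ribosomal precursor Rn45s and those with high Egln1 6.05%, 6.0% and 11.7%.

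**Figure D2:**
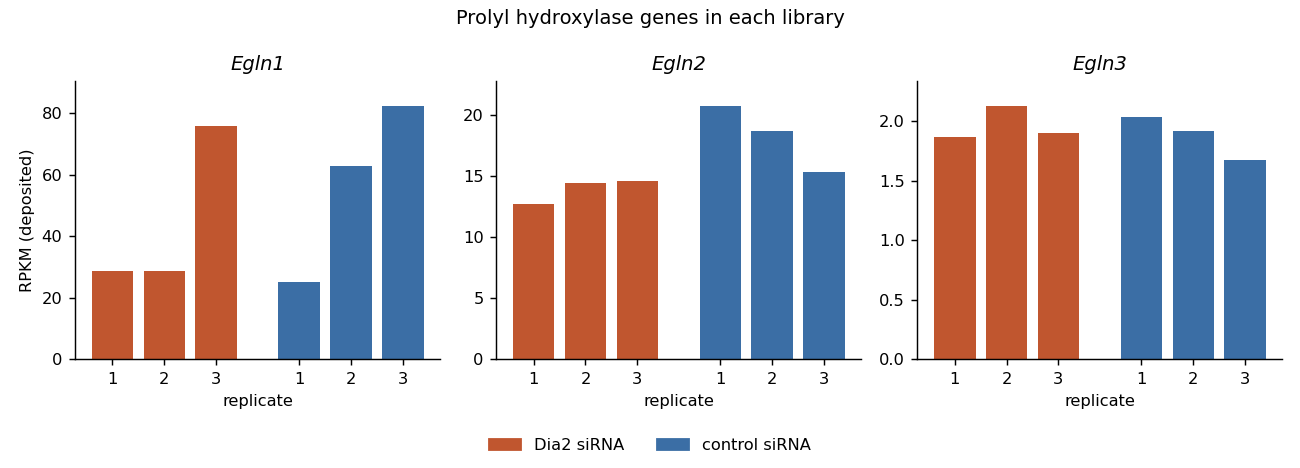
Deposited RPKM (y axes, starting at 0) of Egln1, Egln2 and Egln3 in each library, with Dia2 siRNA replicates 1 to 3 on the left of each panel (orange) and control siRNA replicates 1 to 3 on the right (blue). Egln1 is at 28.8, 28.6 and 75.9 RPKM with Dia2 siRNA and at 25.0, 62.7 and 82.2 RPKM with control siRNA, while Egln2 is lower in all 3 Dia2 siRNA libraries.

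Because Egln1 was also the most abundant hydroxylase transcript per length, it set the balance of the family. Egln1 made up 66.4%, 63.4% and 82.2% of the summed RPKM of the 3 genes with Dia2 siRNA and 52.4%, 75.3% and 82.9% with control siRNA (exact permutation p = 1, also adjusted over the 3 shares). The share of Egln3 was 3.70 ± 1.43% and 2.76 ± 1.35% (SD, n = 3 each; exact permutation p = 0.4, adjusted 1). Within the pair of Egln2 and Egln3, a ratio chosen after the spread of Egln1 was seen, Egln2 held 87.2%, 87.1% and 88.4% with Dia2 siRNA and 91.0%, 90.7% and 90.2% with control siRNA. These shares did not overlap between the groups, at the smallest possible exact permutation p of 0.1.

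Bnip3, Ndrg1 and Ddit4 had the largest changes among the members that passed, whereas Egln3 and Egln1, HIF targets as well, did not pass. Bnip3 (chromosome 7, 138890836 to 138909506, minus strand), whose product sits on the outer mitochondrial membrane and recruits the machinery that degrades mitochondria, had 122, 115.5 and 112 CPM with Dia2 siRNA and 59.6, 57.9 and 64.7 CPM with control siRNA. Every Dia2 siRNA library stood far above every control library, and the means were 117 ± 5.22 and 60.7 ± 3.57 CPM (SD, n = 3 each). The log2 fold change was 0.94 ± 0.05 (SE; edgeR adjusted p = 4.42e-08), a 1.92-fold rise.

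Ndrg1 (chromosome 15, 66929318 to 66969641, minus strand), a stress-responsive gene widely used as a marker of hypoxia, had 26.9, 26.3 and 27.1 CPM with Dia2 siRNA and 15.3, 16.7 and 14.9 CPM with control siRNA. The groups were well apart and tight within themselves, with a log2 fold change of 0.78 ± 0.06 (SE; edgeR adjusted p = 5.84e-07), 1.72-fold. Ddit4 (REDD1; chromosome 10, 59949675 to 59951770, minus strand), which restrains the growth kinase complex mTORC1 through the TSC proteins, had 168, 167 and 164 CPM with Dia2 siRNA and 111, 113 and 111 CPM with control siRNA. Its replicates were the closest of all members in CPM, though not in RPKM. Its log2 fold change was 0.58 ± 0.04 (SE; edgeR adjusted p = 1.8e-07), 1.5-fold. With any library left out, the log2 fold changes of Bnip3, Ndrg1 and Ddit4 stayed at 0.90 to 0.98, 0.75 to 0.82 and 0.57 to 0.58.

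**Figure D3:**
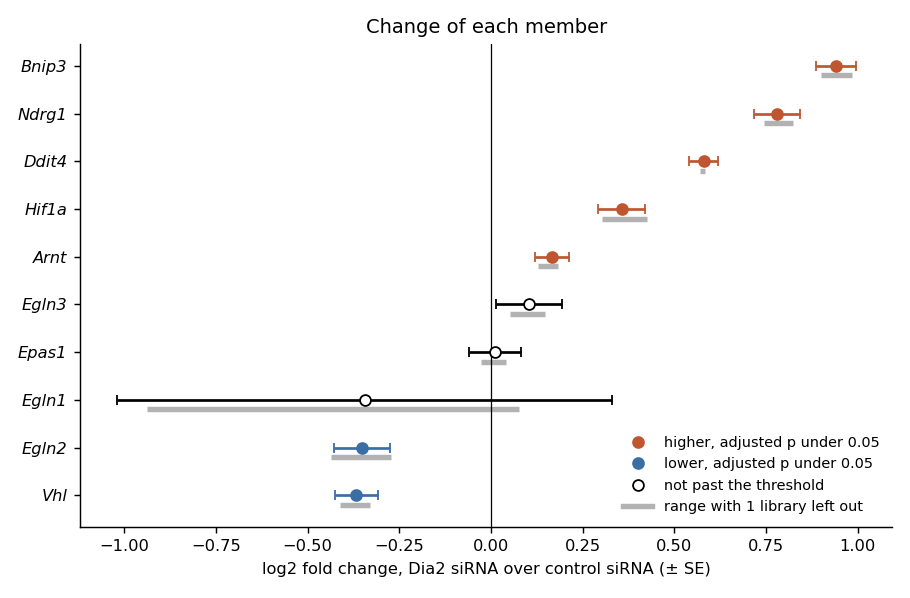
Log2 fold change (x axis, Dia2 siRNA over control siRNA) of the 10 members with SE, coloured by call, above a grey bar for the range obtained with each library left out in turn. Bnip3, Ndrg1 and Ddit4 form the top at 0.94, 0.78 and 0.58, and the bar of Egln1 spans -0.94 to 0.08.

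Levels can be set side by side between genes only per length. By deposited RPKM, Ddit4 was the highest member with Dia2 siRNA (82.0 ± 2.83), followed by Bnip3 (55.1 ± 0.235), Egln1 (44.4 ± 27.3), Hif1a (39.0 ± 0.476), Arnt (18.1 ± 0.773), Egln2 (13.9 ± 1.02), Vhl (10.6 ± 0.394), Ndrg1 (7.70 ± 0.35), Egln3 (1.97 ± 0.139) and Epas1 (1.43 ± 0.115; RPKM, SD, n = 3 each), although the range of Egln1 covered those of Bnip3 and Hif1a. With control siRNA, Egln1 (56.6 ± 29.1) and Ddit4 (56.3 ± 2.77) led and could not be ordered, the range of Egln1 again covering those of Hif1a and Bnip3, Hif1a (31.2 ± 1.43) stood just above Bnip3 (29.4 ± 0.518), and Egln2 (18.2 ± 2.72) and Arnt (16.6 ± 0.665) overlapped. Bnip3 thus stood above Hif1a in every Dia2 siRNA library and below it in every control library. Vhl, Ndrg1, Egln3 and Epas1 closed the order in both groups, with no overlap between these neighbours.

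The counts of some members may hold reads of neighbours, since no strand setting is given. In the GENCODE M21 annotation, exons of antisense genes share 504 bases with Bnip3 (Gm45507), 419 with Ndrg1 (Gm17035) and 330 with Hif1a (Gm15283), and reads from these cannot be told apart from those of the member. Smaller overlaps were 137 bases of Ndrg1 with Gm2895 and 11 bases of Egln2 with Cyp2t4 on the opposite strand, and 148 bases of Hif1a with the protein-coding Gm49321 on the same strand, which a strand setting would not separate. Egln1, Egln3, Vhl and Ddit4 overlapped no other annotated gene. Certain 7-base words had been picked in earlier work on these same fold changes, and their relation to the changes was not tested here. The word GCAGTAC was found once in the longest annotated 3′ UTR of Hif1a, Epas1 and Egln1. The word ATGTGAA was found once in those of Egln2 and Epas1. A further word, TATGTGA, was found in none of the 10 members, and Bnip3, Ndrg1, Ddit4, Arnt, Vhl and Egln3 held none of these words. Among 13003 tested genes with a 3′ UTR, 5.72% held GCAGTAC, 17.3% held ATGTGAA and 12.7% held TATGTGA.

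Over the 6 libraries, the genes with log2 CPM most like that of Hif1a were Zfp148, Fbxo8 and Tmed2 (Pearson's r of 0.999 or above, 9985 genes compared, mean of at least 5 CPM). Those most like Epas1 were 4930413G21Rik, Rnf34 and Tmem158, at r of 0.91, 0.89 and 0.89. These are descriptions over 6 libraries in 2 groups. Hif1a passed the test between these groups and Epas1 did not pass it, and Tmem158 varied widely within both groups.

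Other targets of HIF did not follow one direction. Of 54 listed targets outside the members, 51 were tested, 24 rose, 14 fell and 13 did not pass (74.5% called against 59.2% of all genes tested, median log2 fold change 0.19). Of 13 carriers and enzymes of glucose use, 6 fell, 1 rose and 6 did not pass (median log2 fold change -0.16), where 29.9% of all genes tested fell. Both glycogen genes, Gbe1 (-0.54) and Gys1 (-0.53), fell. Hexokinase 2 (Hk2), which traps glucose in the cell, fell to 30.8 ± 0.979 CPM with Dia2 siRNA, against 64.6 ± 4.44 CPM with control siRNA (SD, n = 3 each; log2 fold change -1.07 ± 0.06 SE, edgeR adjusted p = 3.57e-08). Aldolase A (Aldoa, -0.61), lactate dehydrogenase A (Ldha, -0.41) and the glucose carrier Slc2a1 (-0.19, with overlapping groups) fell, and phosphoglycerate kinase (Pgk1, 0.18) was the riser. The fall of Slc2a1 was lost without Dia2 replicate 2 (adjusted p = 0.0907) and without control replicate 1 (0.0746) or 2 (0.0532).

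Of 5 collagen-modifying targets 4 rose and 1, Plod1, fell (-0.16, with overlapping groups), where 29.3% of all genes tested rose. The crosslinking enzyme Lox had 5861 ± 243 CPM with Dia2 siRNA and 3462 ± 274 CPM with control siRNA (SD, n = 3 each; 0.76 ± 0.06 SE, edgeR adjusted p = 3.17e-07), and the collagen prolyl hydroxylase subunit P4ha1 rose by 0.73. Of 8 regulators of transcription and ubiquitination 7 rose and 1, Wsb1, did not pass (-0.02), led by the clock-linked repressor Bhlhe41 (0.69). Pdk1, a kinase that inhibits pyruvate dehydrogenase, rose by 0.55, the peptide hormone gene Adm by 0.27, and Tgfb3, a TGF-beta ligand, by 1.48. Vegfa, the angiogenic factor that is the best known HIF target, fell by 0.23 on the log2 scale, with 217 ± 2.72 CPM with Dia2 siRNA and 254 ± 11.5 CPM with control siRNA. Car9, a carbonic anhydrase often used as a hypoxia marker, was near 0.6 CPM in both groups and did not pass (0.08 ± 0.38 SE). The division of the targets by role, and Plod1 and Wsb1 as examples, were chosen after their values were seen.

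**Figure D4:**
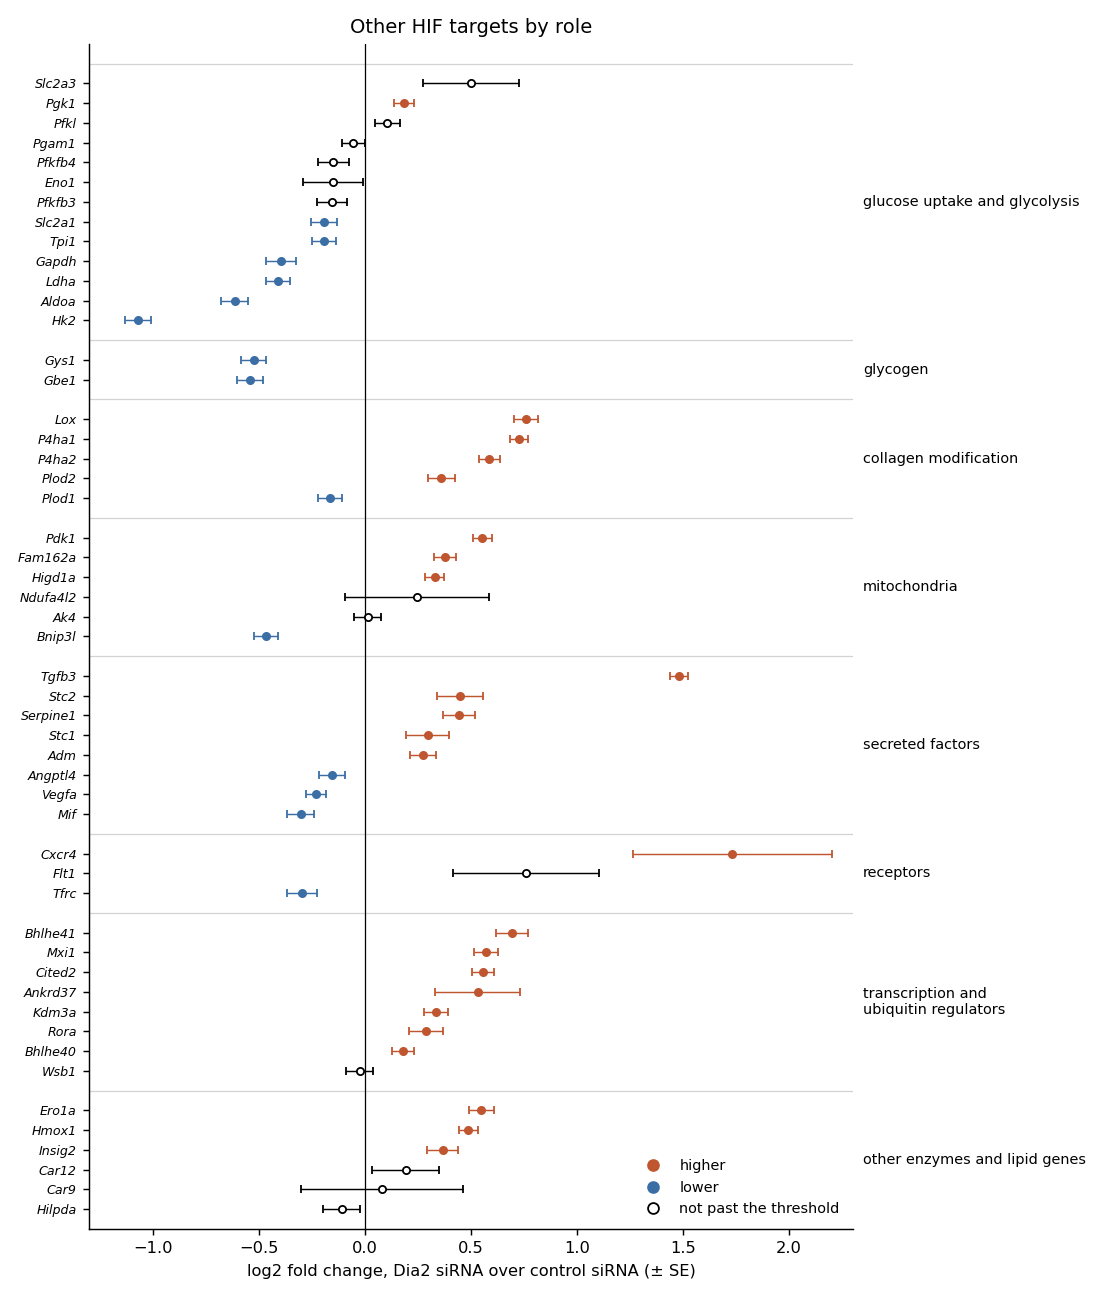
Log2 fold change (x axis, Dia2 siRNA over control siRNA, ± SE) of the 51 tested HIF targets outside the 10 members, grouped by role and coloured by call. Of the 13 genes of glucose use 6 are called lower, down to Hk2 at -1.07, and 4 of 5 collagen-modifying genes and 7 of 8 regulators of transcription and ubiquitination are called higher.

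Of 20 listed partners and regulators of the HIF proteins 19 were tested, 7 rose, 5 fell and 7 did not pass. The share called, 63.2%, lies near the 59.2% of all genes tested, and the median log2 fold change was -0.04. Hif1an, the asparagine hydroxylase that blocks coactivator binding by the alpha subunit, was at 92.2, 94.1 and 91.5 CPM with Dia2 siRNA and at 66.4, 66.7 and 65.2 CPM with control siRNA, with no overlap (0.49 ± 0.04 SE, edgeR adjusted p = 1.18e-06). Arnt2, a paralog of Arnt, rose by 1.44 on the log2 scale from a low level, to 4.41 ± 0.371 CPM with Dia2 siRNA, against 1.63 ± 0.107 CPM with control siRNA (SD, n = 3 each). P4htm (0.40) and Os9 (0.37) also rose, and the P4htm call was lost without Dia2 replicate 2 (adjusted p = 0.0714) or control replicate 1 (0.0708). Among the partners of Vhl in its ligase, Rbx1 and Eloc each fell by 0.22, and Cul2 (-0.04) and Elob (-0.06) did not pass. Hsp90aa1 and Hsp90ab1, chaperones of the alpha subunit, fell by 0.45 and 0.27, and Sart1 fell by 0.43.

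In the pathways where the 3 targets act, the close relatives of the members did not all move with them. Bnip3l, the paralog of Bnip3 and also a mitophagy receptor, was lower at 77.1, 75.1 and 72.3 CPM with Dia2 siRNA and 95.9, 102 and 112 CPM with control siRNA (-0.47 ± 0.06 SE, edgeR adjusted p = 2.42e-05), the opposite direction to Bnip3. Of 12 mitophagy genes tested 4 rose, 5 fell and 3 did not pass (75.0% called against 59.2% of all genes tested, median log2 fold change 0.09). Pink1, the kinase that marks damaged mitochondria, rose by 0.84, while Phb2 (-0.72), Sqstm1 (-0.59) and Fkbp8 (-0.51) fell, and Optn, Gabarapl1 and Map1lc3b rose by 0.56, 0.36 and 0.34. Of 17 genes that form or regulate mTORC1, 4 rose, 8 fell and 5 did not pass (70.6% called against 59.2% of all genes tested, median log2 fold change -0.10). Ddit4l, the paralog of Ddit4, rose by 0.78 and the stress sensor Sesn1 by 0.72, and Deptor (-0.98), Akt1s1 (-0.68), Sesn3 (-0.49) and Depdc5 (-0.38) fell. Castor1 (0.38) and Tbc1d7 (0.19) also rose. The call of Tbc1d7 was lost without Dia2 replicate 1 (adjusted p = 0.13) or 3 (0.103) and without control replicate 1 (0.0879) or 3 (0.0634). In the Ndrg family, Ndrg4 rose by 1.07 to 48.4 ± 0.814 CPM with Dia2 siRNA, against 23.1 ± 0.795 CPM with control siRNA (SD, n = 3 each), Ndrg3 rose by 0.28, and Ndrg2 did not pass (0.32).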

How the data were processed

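Libraries were grouped by the sample titles. The submitters' processing notes name bcl2fastq, TopHat2 2.0.6 and HTSeq with no roles, and human builds (hg19, GRCh37), whereas the deposited table holds mouse symbols whose coordinates lie on GRCm38 genes. The deposited gene counts are whole and even. The RPKM values deposited by the authors equal the count divided by a deposited length and by 1 total per library; this length, headed as coding length, is close to that of the whole transcript.

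Counts were filtered with filterByExpr (minimum count 10, total 15), scaled by TMM and tested with edgeR 4.0.16 (limma 3.58.1, R 4.3.3), quasi-likelihood with robust dispersion, group as the only term and Benjamini-Hochberg adjustment at 0.05 over 14151 genes. RPKM served for levels between genes and for ratios. Older symbols were replaced for 2294 rows. The members and lists were chosen with earlier results of these data known. Named are the members, Diaph3, up to 4 genes past the threshold in each direction per list with a mean of at least 1 CPM, and 9 preset targets and regulators. Other genes, such as Plod1, Wsb1, Eloc and Elob, were named after their values were seen. These were not followed through the alternatives. Alternatives were other size factors and filters, DESeq2 1.42.0, limma-voom, a replicate block, halving of the counts, removal of Rn45s and Lars2, and libraries left out. Replicates of a group differed beyond sampling noise (chi-square per degree of freedom of 6.70 or more), so all 6 were kept. The value was 6.70 for control replicates 1 and 2, but 85.2 and 77.3 for control replicate 3 against them. It was 9.94 for Dia2 replicates 2 and 3, but 30.5 and 56.6 for Dia2 replicate 1 against them. Control replicate 3 and Dia2 replicate 1 also had the highest Rn45s share of their group, 11.7% and 10.9%. The edgeR fit was tested on simulated data.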

Additional observations from a re-analysis of the deposited data

How the results depend on the processing

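Of the 10 members, Hif1a, Vhl, Egln2, Bnip3, Ddit4 and Ndrg1 kept their direction and call, and Egln3 stayed short of the threshold, under every alternative run. Arnt lost its call once, without Dia2 replicate 2, and ranged from 0.13 to 0.18 with single libraries left out. Members past the threshold numbered 6 or 7 with a library left out and 7 otherwise, and all genes past it 7343 to 9193. Epas1, never past the threshold, turned to -0.0059 with no composition factor and ranged from -0.028 to 0.041 with single libraries left out. Egln1, also never past it, ranged from -0.94 to 0.077 with single libraries left out and was 0.29 when each group lost its library with the highest Rn45s share, an alternative chosen after seeing the data. Car9 was -0.040 under that alternative and -0.31 to 0.45 with single libraries left out, and Cul2 ranged from -0.081 to 0.025. The cause of these turns was not tested. Listed HIF targets past the threshold numbered 32 to 41. Same-numbered libraries deviated from their group means with correlations of -0.19, -0.08 and -0.28, so the numbers were not taken as pairs. With the replicate block, 7772 genes and 7 members passed (Hif1a 0.36, adjusted p = 0.00154, Arnt 0.17, adjusted p = 0.0317). Of the genes named by the rule above, Tbc1d7 lost its call with this block (adjusted p = 0.0693). Listed HIF targets called lower numbered 12 with the block, against 14 in the main test, and Plod1 was not followed by name. Scarce genes are limited by depth: a floor of 6 counts, or 3 fragments if each added 2, was 0.0628 to 0.0764 CPM in the Dia2 siRNA libraries and 0.0545 to 0.0851 CPM in the control libraries.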

Other observations

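The 8 genes whose log2 CPM spread more within groups than that of Egln1 did so through single or few libraries. Tmem158 had 1.01, 563 and 868 CPM with Dia2 siRNA and 658, 23.7 and 1026 CPM with control siRNA. Sap30l had 19.7, 246 and 20.5 CPM with Dia2 siRNA and 20.6, 20.6 and 18.7 CPM with control siRNA. Prickle1 had 7.95, 8.62 and 7.86 CPM with Dia2 siRNA and 18.4, 17.3 and 107 CPM with control siRNA. These genes were chosen after their values were seen. Egln1 shares with Tmem158, and not with Sap30l and Prickle1, that each group has both low and high libraries.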
